A study of Homo sapiens with 6 samples.

Results

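Gene starts of long noncoding RNAs (lncRNAs) were examined in ChIP-seq peak lists of OCI-AML3 cells, an established human acute myeloid leukemia (AML) line that carries a heterozygous mutation of NPM1 (mtNPM1). A member was the start of an autosomal lncRNA gene more than 5 kb from every protein-coding gene start, with 1 kb on either side. In the hg19 annotation 14026 of 18229 autosomal lncRNA starts met this rule, which was 76.9% of them, and 37458 lncRNA and protein-coding starts made up the whole set. In the hg38 annotation 9589 of 12529 lncRNA starts with a known strand met it, 76.5% of them, among 31310 starts in all. The median member lay 64.8 kb (hg19) or 81.1 kb (hg38) from the nearest coding start, and 10127 and 5742 members had only an identifier as a name. Per the labels all cells were OCI-AML3. They were transfected for CRISPR-Cas9 editing with sgNeg, a control guide, or with sgNpm1A, which targets mtNPM1, and cultured for 3 days per the labels, while the study's methods give a longer time. Whether the edited cells were a clone or a pool was not given in the sources used here. Each guide was measured in 1 library for acetylation of lysine 27 (H3K27Ac) and 1 for trimethylation of lysine 4 (H3K4me3) of histone H3, and the 2 input libraries were not analysed here.

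Most lncRNAs are transcribed by RNA polymerase II from promoters that resemble those of protein-coding genes, though often weaker and active in fewer cell types. H3K4me3 sits on the nucleosomes that flank an active start, and H3K27Ac covers active promoters and enhancers, so that a broad H3K27Ac domain at a lncRNA start can belong to either kind of element. Many promoters of broadly expressed genes lie in CpG islands, where the dinucleotide CG is not depleted. Some lncRNA genes are hosts from whose introns or exons small nucleolar RNAs (snoRNAs) or microRNAs (miRNAs) are processed.

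Promoter sequences of 8 members on hg38 are shown because they span the range of the H3K4me3 results. They were taken from RefSeq (GRCh38.p14) and run from 250 bases before to 50 bases after the gene start, 5′ to 3′ on the strand of the gene, with every CG dinucleotide in capitals. MIRLET7BHG, RENO1, MIR23AHG, MIR17HG and SNHG5 had a sgNeg peak and no sgNpm1A peak in the window. LOC105374641 had peaks in both lists, and MEG3 and LINC00261 had none.
MIRLET7BHG (chr22:46085747-46086046, plus strand): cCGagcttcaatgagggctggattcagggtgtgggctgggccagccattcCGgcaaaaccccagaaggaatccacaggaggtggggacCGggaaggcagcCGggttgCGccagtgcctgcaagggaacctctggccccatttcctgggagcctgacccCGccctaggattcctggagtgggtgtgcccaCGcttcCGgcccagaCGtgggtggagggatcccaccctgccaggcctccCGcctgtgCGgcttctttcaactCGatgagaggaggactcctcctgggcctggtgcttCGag
RENO1 (chr17:81345946-81346245, minus strand): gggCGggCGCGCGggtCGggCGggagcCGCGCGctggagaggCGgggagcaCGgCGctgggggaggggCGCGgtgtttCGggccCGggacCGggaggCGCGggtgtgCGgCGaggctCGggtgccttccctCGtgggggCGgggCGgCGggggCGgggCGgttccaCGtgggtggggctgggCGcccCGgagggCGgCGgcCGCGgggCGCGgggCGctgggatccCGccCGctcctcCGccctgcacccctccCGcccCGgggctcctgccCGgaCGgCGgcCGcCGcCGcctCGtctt
MIR23AHG (chr19:13842869-13843168, minus strand): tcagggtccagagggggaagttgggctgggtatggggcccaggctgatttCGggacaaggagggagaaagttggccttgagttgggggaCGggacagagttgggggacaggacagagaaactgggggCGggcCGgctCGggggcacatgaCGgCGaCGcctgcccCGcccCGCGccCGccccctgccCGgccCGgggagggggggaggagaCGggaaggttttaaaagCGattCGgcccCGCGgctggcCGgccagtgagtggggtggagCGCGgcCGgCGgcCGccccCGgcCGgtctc
MIR17HG (chr13:91347437-91347736, plus strand): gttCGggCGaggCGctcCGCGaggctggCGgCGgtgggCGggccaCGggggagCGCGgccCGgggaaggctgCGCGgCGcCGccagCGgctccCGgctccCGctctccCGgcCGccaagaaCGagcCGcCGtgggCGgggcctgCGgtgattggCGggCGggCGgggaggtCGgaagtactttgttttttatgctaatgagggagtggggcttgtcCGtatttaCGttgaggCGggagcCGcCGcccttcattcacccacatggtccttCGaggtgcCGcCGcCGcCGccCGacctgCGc
SNHG5 (chr6:85678684-85678983, minus strand): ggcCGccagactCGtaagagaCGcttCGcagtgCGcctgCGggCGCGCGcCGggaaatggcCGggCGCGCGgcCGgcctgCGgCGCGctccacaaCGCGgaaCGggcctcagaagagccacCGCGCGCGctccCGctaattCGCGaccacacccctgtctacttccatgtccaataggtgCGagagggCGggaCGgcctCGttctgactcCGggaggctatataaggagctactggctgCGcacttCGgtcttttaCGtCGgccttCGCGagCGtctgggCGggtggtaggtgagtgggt
LOC105374641 (chr5:6829513-6829812, plus strand): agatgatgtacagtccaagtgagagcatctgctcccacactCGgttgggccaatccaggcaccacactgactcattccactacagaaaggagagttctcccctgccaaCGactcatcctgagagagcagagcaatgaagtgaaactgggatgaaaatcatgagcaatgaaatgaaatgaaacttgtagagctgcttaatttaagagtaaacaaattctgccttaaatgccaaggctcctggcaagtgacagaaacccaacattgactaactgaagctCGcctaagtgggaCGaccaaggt
MEG3 (chr14:100825858-100826157, plus strand): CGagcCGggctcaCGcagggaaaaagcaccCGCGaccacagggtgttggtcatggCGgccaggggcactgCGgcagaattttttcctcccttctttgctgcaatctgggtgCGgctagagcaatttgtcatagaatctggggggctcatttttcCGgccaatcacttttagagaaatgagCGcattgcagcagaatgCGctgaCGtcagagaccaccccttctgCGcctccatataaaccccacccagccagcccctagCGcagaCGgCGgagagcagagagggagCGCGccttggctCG
LINC00261 (chr20:22578593-22578892, minus strand): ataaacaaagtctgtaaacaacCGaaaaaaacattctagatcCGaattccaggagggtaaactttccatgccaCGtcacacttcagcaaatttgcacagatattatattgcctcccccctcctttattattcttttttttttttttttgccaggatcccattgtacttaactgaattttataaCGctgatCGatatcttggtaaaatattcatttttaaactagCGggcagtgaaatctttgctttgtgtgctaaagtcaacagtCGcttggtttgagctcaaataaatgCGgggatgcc

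The promoters differed widely in CG content. RENO1 held 50 CG dinucleotides in 300 bases, MIR17HG 42, SNHG5 41 and MIR23AHG 27, and their ratios of observed to expected CG were 0.96, 1.07, 1.2 and 0.74. MIRLET7BHG, with the widest sgNeg H3K4me3 peak of all members, held 13 and had a ratio of 0.41, so that its start lay outside the CpG-rich class used below. LOC105374641, with a peak in both lists, held 4 and had a ratio of 0.25. MEG3, an imprinted lncRNA gene, held 19 with a ratio of 0.73, so that a CpG-rich start alone did not go with a peak. LINC00261, known from endoderm-derived tissues, held 8 in a window of 37.0% G and C. MIRLET7BHG and MEG3 are annotated with other starts in hg19 (the MIRLET7BHG record runs over 46449749 to 46509808 there and over 46085997 to 46113928 in hg38), so the sequences belong to the H3K4me3 windows only.

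MIRLET7BHG, MIR23AHG and MIR17HG are miRNA hosts, and mature miRNAs that lie within their gene records are shown with the seed, bases 2 to 8, in capitals (RefSeq, GRCh38.p14). MIRLET7BHG holds let-7a-3 and let-7b, whose seeds are identical, MIR23AHG holds the miR-23a, miR-27a and miR-24-2 cluster, and MIR17HG holds the miR-17 to miR-92a cluster, in which miR-17 and miR-20a share a seed and miR-19a and miR-19b share another.
hsa-let-7a-5p: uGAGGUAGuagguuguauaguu
hsa-let-7b-5p: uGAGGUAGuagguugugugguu
hsa-miR-23a-3p: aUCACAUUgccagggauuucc
hsa-miR-27a-3p: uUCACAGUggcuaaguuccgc
hsa-miR-24-3p: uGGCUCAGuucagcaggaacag
hsa-miR-17-5p: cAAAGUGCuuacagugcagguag
hsa-miR-20a-5p: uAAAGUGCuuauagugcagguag
hsa-miR-18a-5p: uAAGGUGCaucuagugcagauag
hsa-miR-19a-3p: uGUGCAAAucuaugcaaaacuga
hsa-miR-19b-3p: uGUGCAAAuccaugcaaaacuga
hsa-miR-92a-3p: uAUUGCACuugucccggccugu

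Every group was 1 library. The spread between replicates is therefore unknown, differences between guides carry no p-value, and a comparison speaks of the libraries compared. The lists held 327715 (sgNeg H3K27Ac), 317059 (sgNpm1A H3K27Ac), 353628 (sgNeg H3K4me3) and 106641 (sgNpm1A H3K4me3) peaks, and the read depth behind them was not given in the sources used here. Both sgNpm1A lists stood apart at protein-coding starts. The share of coding starts with a peak was 0.957 times (H3K27Ac) and 0.694 times (H3K4me3) that of windows 20 kb away, against 1.78 and 2.26 times in sgNeg. With 1 library a group, the guide and the library cannot be told apart in any difference below. The H3K27Ac lists were also named with the letters OCI2 and the H3K4me3 lists with OCI3, and the study used OCI-AML2 cells as well. The labels and the study's methods give OCI-AML3 for both marks, which was followed here. The label of a myeloid line was checked at 9 myeloid coding starts, of which 9 had a sgNeg H3K27Ac peak and 4 (CD68, CEBPA, MPO and SPI1) a peak with a q-value under 1e-05. In sgNpm1A H3K27Ac 5 of the 9 had a peak and 0 such a strong one. Any sgNeg H3K27Ac peak was also found at 1 of 3 erythroid, 3 of 4 B cell, 2 of 4 T cell and 2 of 3 epithelial starts, but 0 of these had a strong one. Any peak thus separated the lineages poorly. For H3K4me3, 6 of the 9 myeloid starts had a sgNeg peak, 3 of them strong (CD68, CEBPA and SPI1). In sgNpm1A H3K4me3, 2 of the 9 had a peak and 0 a strong one. Of the other lineages, KRT8 had a strong H3K4me3 peak in sgNeg and CD3D one in sgNpm1A. The markers were not chosen to tell OCI-AML2 from OCI-AML3. These markers are coding genes and not members.

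In sgNeg, H3K27Ac marked 5539 of 14026 lncRNA starts, 39.5% (95% Wilson interval 38.7 to 40.3), against 60.0% of all lncRNA and coding starts. Coding starts carried a peak in 71.7% of cases and lncRNA starts within 5 kb of a coding start in 74.6%. In sgNpm1A, 4871 lncRNA starts had a peak, 34.7% (33.9 to 35.5), against 34.1% of all starts. There the coding starts (33.8%) and the lncRNA starts near them (33.0%) had no higher share than the members. For H3K4me3 the members with a peak numbered 2817 of 9589 in sgNeg, 29.4% (28.5 to 30.3), against 55.7% of all starts, and 1105 in sgNpm1A, 11.5% (10.9 to 12.2), against 8.97% of all starts. Intervals cover counting error only, and neighbouring starts can share a peak.

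**Figure D1:**
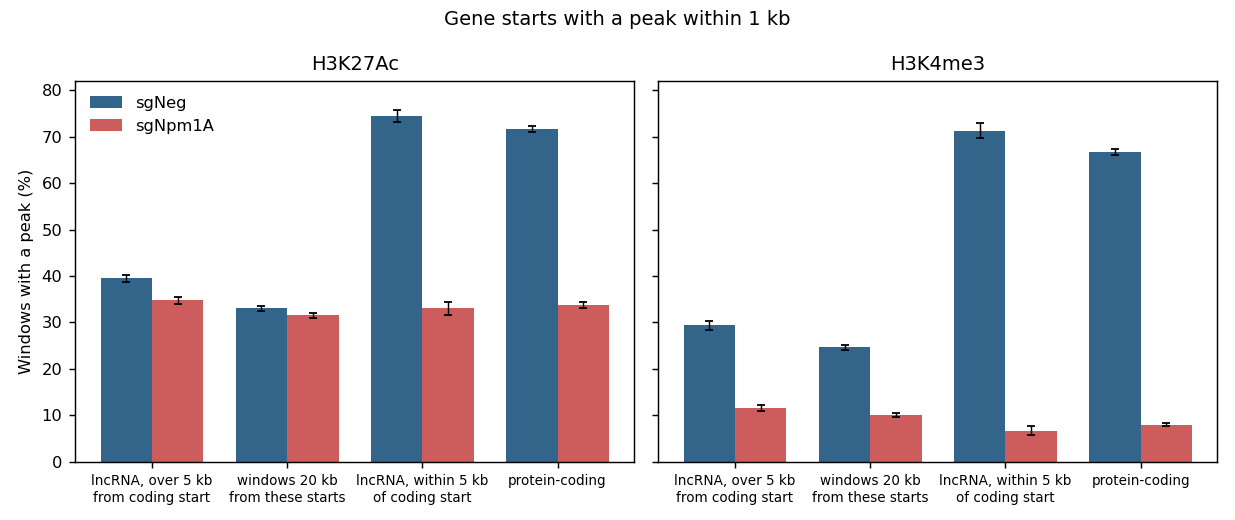
Share of windows (vertical axis, %) that hold a peak in sgNeg and sgNpm1A, for lncRNA starts over 5 kb from a coding start, windows 20 kb to either side of them, lncRNA starts within 5 kb of a coding start and coding starts; bars start at 0 and error bars are 95% Wilson intervals. In sgNeg the lncRNA starts reach 39.5% (H3K27Ac) and 29.4% (H3K4me3), below the coding starts at 71.7% and 66.6%, and in sgNpm1A they lie above them, at 34.7% against 33.8% and 11.5% against 8.02%.

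Much of this signal was not particular to the start itself. Windows 20 kb to either side of the members held a peak in 33.1% (sgNeg H3K27Ac), 31.5% (sgNpm1A H3K27Ac), 24.6% (sgNeg H3K4me3) and 10.0% (sgNpm1A H3K4me3) of cases. The share at the starts was therefore 1.19, 1.1, 1.19 and 1.15 times that of their surroundings. The windows 20 kb away were placed by distance alone, so some can hold coding starts or other lncRNA starts. Among strong peaks, with a q-value under 1e-05, the ratio was 1.66 in sgNeg H3K27Ac and 1.38 in sgNeg H3K4me3, against 0.964 and 1.08 in the sgNpm1A lists. Strong peaks marked 666 members (4.75%, against 23.0% of all starts) in sgNeg H3K27Ac and 67 (0.478%, against 0.350%) in sgNpm1A H3K27Ac. For H3K4me3 they marked 929 members (9.69%, against 39.4%) in sgNeg and 191 (1.99%, against 1.54%) in sgNpm1A. Few peaks at members also touched a coding start, which the rule itself makes rare. Such a peak must bridge the gap between windows of starts more than 5 kb apart. In the H3K4me3 lists the median peak width was 192 bp (sgNeg) and 407 bp (sgNpm1A). Of the 5539 members with a sgNeg H3K27Ac peak, 55 (0.993%) had a peak that also touched the window of a coding start, and 8 did in sgNpm1A, while 0 members did in the H3K4me3 lists.

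The guides were next compared start by start. For H3K27Ac, 3301 members had a peak in both lists (23.5%, against 26.3% of all starts), 2238 in sgNeg alone, 1570 in sgNpm1A alone and 6917 in neither. The shared members were 59.6% of those marked in sgNeg and 67.8% of those marked in sgNpm1A. For H3K4me3, 806 members had a peak in both lists (8.41%, against 6.80% of all starts), 2011 in sgNeg alone, 299 in sgNpm1A alone and 6473 in neither. These 806 were 28.6% of the sgNeg members and 72.9% of the sgNpm1A members. The number of marked members in sgNpm1A was 0.879 times that in sgNeg for H3K27Ac, against 0.472 times for coding starts and 0.443 times for lncRNA starts near coding starts. For H3K4me3 it was 0.392 times, against 0.120 and 0.0935 times. Distant lncRNA starts thus stood between promoters in or near coding genes and the windows 20 kb away, where the number was 0.953 and 0.406 times that in sgNeg.

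Because the lists differ in length, the 20000 peaks with the lowest p-values of each were also compared. For H3K27Ac the sgNeg set reached 1081 members and the sgNpm1A set 395, which is 0.365 times as many, against 8422 and 451 coding starts, a ratio of 0.0536. For H3K4me3 they reached 334 and 247 members, 0.740 times as many, against 7972 and 334 coding starts, a ratio of 0.0419. In the windows 20 kb from the members the same ratios were 0.594 and 1.1.

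Peak strength was compared by the percentile of the fold enrichment within its own list, with 0 for no peak. Fold enrichment itself is scaled within a library. A percentile depends in turn on how many weak peaks its list holds, and the H3K4me3 lists held 353628 (sgNeg) and 106641 (sgNpm1A) peaks. Where both lists had a peak, the percentile was lower in sgNpm1A at 1758 members (53.3%, against 65.3% of all such starts) for H3K27Ac and at 470 (58.3%, against 61.4%) for H3K4me3. The peak was narrower in sgNpm1A at 1687 of them (51.1%, against 63.2%) for H3K27Ac and at 168 (20.8%, against 25.7%) for H3K4me3. At shared members, then, H3K4me3 peaks were wider in sgNpm1A than in sgNeg at most starts, as they were across all starts. Peaks in that list had a median width of 407 bp, against 192 bp in sgNeg.

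The order of CpG-rich and CpG-poor members, a property the choice of members did not use, turned between the guides. A start was called CpG-rich where its 300 bases had at least 50% G and C and a ratio of observed to expected CG of at least 0.6. This class held 10.7% of the members on hg19 and 10.9% of the 8197 members with a promoter sequence on hg38, against 55.4% and 64.4% of coding starts. In sgNeg H3K27Ac, 58.1% (55.5 to 60.5) of 1495 CpG-rich members had a peak and 37.3% (36.4 to 38.1) of 12531 CpG-poor ones. In sgNpm1A H3K27Ac the order was the opposite, at 30.4% (28.2 to 32.8) and 35.2% (34.4 to 36.1). H3K4me3 gave the same turn, with 44.5% (41.2 to 47.7) of 893 CpG-rich and 27.6% (26.6 to 28.6) of 7304 CpG-poor members in sgNeg, and 8.73% (7.06 to 10.8) and 11.8% (11.1 to 12.6) in sgNpm1A. At coding starts the shares turned in the same way, from 82.8% of CpG-rich and 57.9% of CpG-poor starts in sgNeg H3K27Ac to 28.8% and 40.1% in sgNpm1A.

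**Figure D2:**
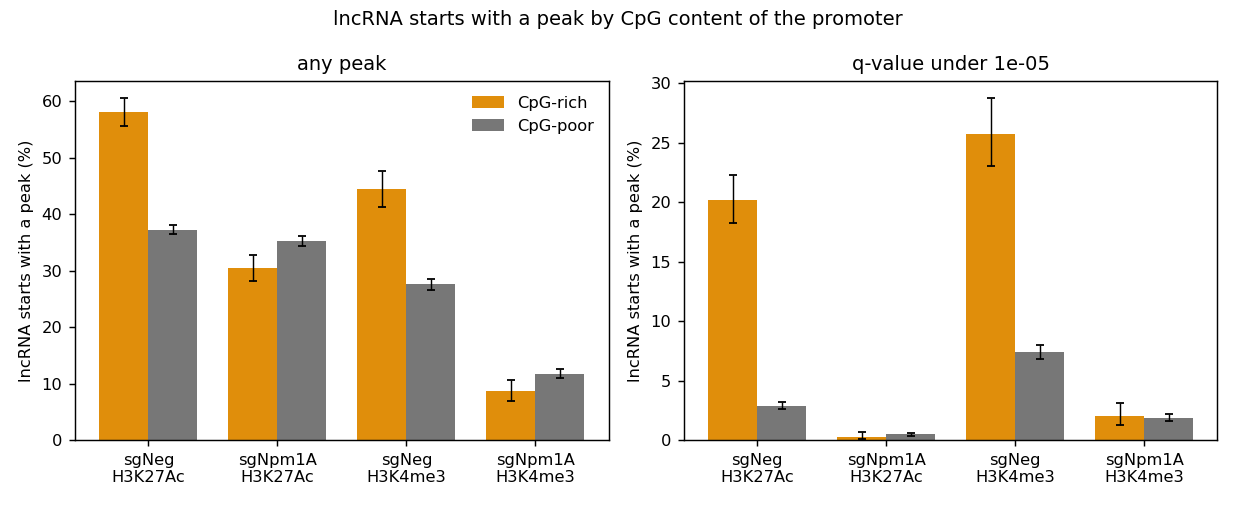
Share of lncRNA starts (vertical axis, %) with any peak (left) or a peak with a q-value under 1e-05 (right) in each list, for CpG-rich and CpG-poor starts; error bars are 95% Wilson intervals. CpG-rich starts are higher in both sgNeg lists (58.1% against 37.3%, and 44.5% against 27.6%) and lower in both sgNpm1A lists when all peaks are counted.

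Strong peaks showed the sgNeg difference more sharply. With a q-value under 1e-05, sgNeg H3K27Ac marked 20.2% of CpG-rich and 2.90% of CpG-poor members, and sgNeg H3K4me3 25.8% and 7.38%. In sgNpm1A the corresponding shares were 0.268% and 0.503% for H3K27Ac, whose intervals overlap (0.104 to 0.686 and 0.393 to 0.643), and 2.02% and 1.88% for H3K4me3. Of the 666 members with a strong sgNeg H3K27Ac peak, 302 (45.3%) were CpG-rich, against 7.43% of the 6917 members with no H3K27Ac peak.

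Peaks also had a shape around the start. The share of members covered by a sgNeg H3K27Ac peak was 17.5% at the start itself and 11.6% on average 8 to 10 kb away, or 1.5 times as high. At CpG-rich members it was 36.7% and 12.9%, a ratio of 2.83. In sgNpm1A the values were 10.8% and 9.21% over all members, and at CpG-rich members 7.76% and 9.07%, a ratio of 0.855 with a low of 6.62% at 300 bp upstream. sgNeg H3K4me3 had a double crest at CpG-rich members. Coverage reached 14.6% at 600 bp upstream, dropped to 7.05% at 100 bp upstream and reached 16.8% at 300 bp downstream, against at most 6.16% anywhere 8 to 10 kb away. No such crests stood at CpG-rich members in sgNpm1A H3K4me3, where the values within 600 bp of the start went from 1.57% at 500 bp upstream to 2.46% at 200 bp downstream, and those 8 to 10 kb away from 2.02% to 3.70%.

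**Figure D3:**
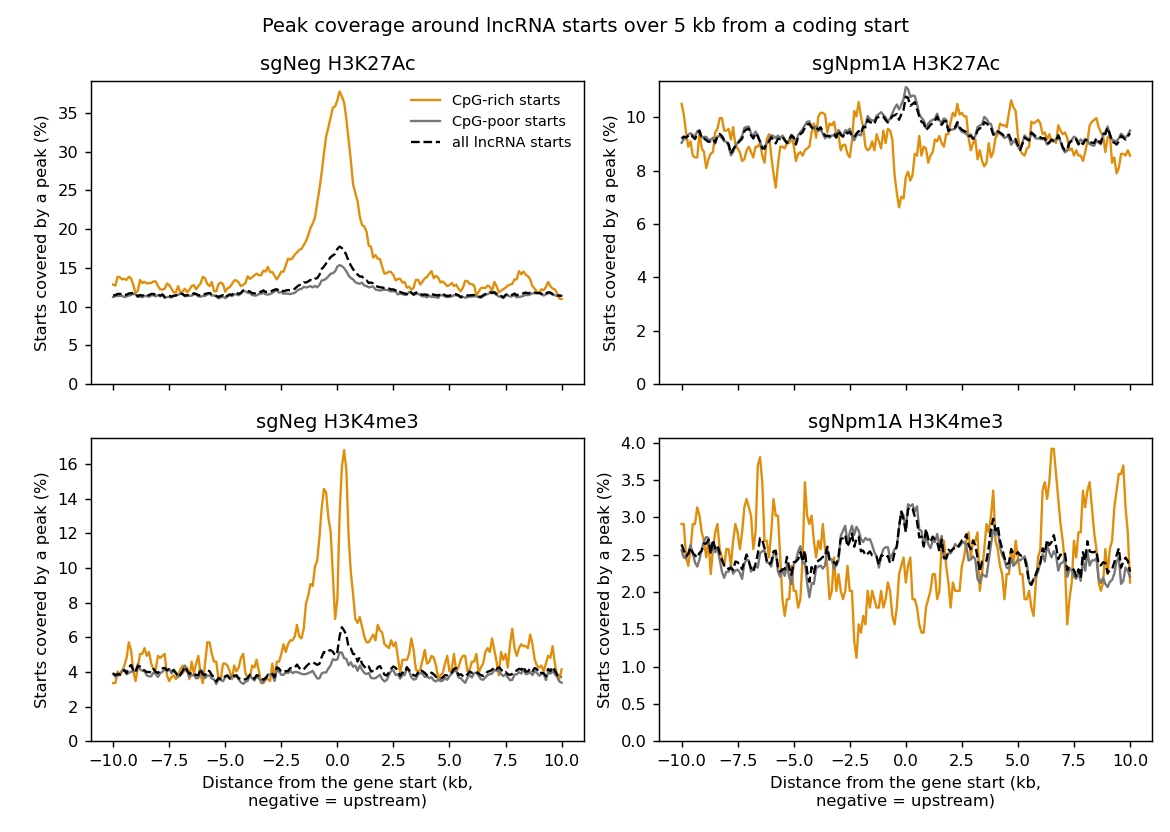
Share of lncRNA starts covered by a peak (vertical axis, %, scaled per list) at each distance from the gene start (horizontal axis, kb, negative upstream) for all, CpG-rich and CpG-poor starts. CpG-rich starts form a crest of 37.8% in sgNeg H3K27Ac and a pair of crests of 14.6% and 16.8% in sgNeg H3K4me3, and dip to 6.62% in sgNpm1A H3K27Ac.

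Short sequence motifs were counted in the same 300 bases on both strands, as a description. CGGAAG, a sequence bound by factors of the ETS family, was in 18.2% of members with a strong sgNeg H3K27Ac peak, 6.14% of members with no H3K27Ac peak, 7.74% of all members and 16.5% of all starts. TATAAA went the other way, at 9.01%, 22.7%, 18.4% and 13.4%. CCAAT was in 31.4% and 38.5% of the strong and unmarked members, against 35.4% of all starts. GAGGAA was in 27.6% and 24.7%, against 26.8%. TGACAG was in 16.2% and 20.1%, against 16.6%. No searched motif holds another one, though CGGAAG and GAGGAA share GGAA and can overlap. The median number of CG dinucleotides was 13.5 in the strong and 3 in the unmarked members, and its part in the motif counts was not tested.

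The share of marked members also went with location. The share of members with a sgNeg H3K27Ac peak was 52.9% at 5 to 10 kb from a coding start, 47.9% at 10 to 50 kb, 38.6% at 50 to 200 kb and 23.2% beyond 200 kb. In sgNpm1A H3K27Ac the same classes had 44.5%, 38.4%, 35.4% and 24.8%. For H3K4me3 they had 42.9%, 37.5%, 29.1% and 17% in sgNeg and 13.4%, 14.4%, 12.1% and 6.94% in sgNpm1A. Starts beyond 200 kb thus had the lowest share in all 4 lists. Starts inside a coding gene on its opposite strand had a sgNeg peak in 47.2% (H3K27Ac) and 37.2% (H3K4me3) of cases, against 36.6% and 26.3% of starts outside coding genes. Starts on the same strand as the coding gene had one in 37.5% of cases for either mark, so that for H3K4me3 both strands were alike. At the limit of the rule the values changed little in sgNeg H3K27Ac, with 56.9% of 299 starts at 4 to 5 kb and 54.6% of 240 at 5 to 6 kb. In sgNeg H3K4me3 the share was higher beyond the limit, at 39.4% of 132 starts and 45.2% of 135. The sgNpm1A lists had 41.5% and 43.8% (H3K27Ac) and 14.4% and 14.8% (H3K4me3).

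Chromosomes differed more than most of these classes. Chromosome 8 had the highest share of marked members in every list, with 68.5% (sgNeg) and 68.0% (sgNpm1A) for H3K27Ac, against medians over the autosomes of 36.6% and 31.7%. For H3K4me3 it was 73.6% and 42.6%, against medians of 27.5% and 9.03%, though only 129 members of that chromosome had a strand on hg38. The next highest shares were those of chromosomes 1, 5 or 17 in each list. Without chromosomes 1, 5, 8 and 17 the shares of all members were 35.1%, 30.2%, 25.2% and 8.92% in the order of the lists above, and the ratios to windows 20 kb away were 1.23, 1.12, 1.22 and 1.21.

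The widest peaks named a small set of lncRNA loci. In sgNeg H3K27Ac, the widest peak at a member was also the widest of the whole list, 60166 bp at chr22:46430942-46491107 (hg19) enriched 13.2-fold at a q-value of 5.83e-37. It covered the starts of 9 members, among them MIRLET7BHG, the host of let-7b, LINC00899, PRR34-AS1 and LINC02939. In the hg19 annotation the nearest coding start was 67691 bp from a member. In the hg38 annotation, however, the LINC00899 start lies 224 bp from a coding start and is not a member. The sgNpm1A list held 10 peaks of at most 1537 bp in this domain. They covered 10.3% of it, and none lay in the window of MIRLET7BHG or LINC00899. The next were both in HOX clusters. A peak of 59874 bp at HOXB-AS2 (chr17:46618333-46678206) was covered to 4.01% in sgNpm1A, and a peak of 51584 bp at HOXA10-AS (chr7:27198257-27249840) to 2.06%. These domains also reach coding HOX starts, and neither lncRNA start held a sgNpm1A peak. A peak of 42939 bp at LINC02132 (chr16:85931861-85974799), which also reaches the start of IRF8, a myeloid transcription factor, was covered to 11.3%. The widest peaks were chosen by width in their own list, so their cover in the other list is a description only. Cover of the other peaks is not given here. In all, sgNeg H3K27Ac peaks covered 220.2 Mb and sgNpm1A H3K27Ac peaks 194.6 Mb.

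Other wide sgNeg domains were covered to a larger extent in sgNpm1A. A peak of 43171 bp at LNCATV and LINC02971 (chr1:235088032-235131202) was covered to 42.4% by 16 sgNpm1A peaks, 1 of which had a fold enrichment of 7.85. ENSG00000260460 lay in a peak of 38049 bp that also reaches the start of MEF2D and was covered to 61.6%. ENSG00000289316 on chromosome 8 lay in 38905 bp covered to 49.3%, ENSG00000259031 in 35912 bp covered to 36.5% and LINC03081 in 35369 bp covered to 34.3%. The highest cover, 96.6%, was at ENSG00000291233 and ENSG00000272755 within PDE4DIP (chr1:144986008-145037561), a region with near-identical copies on the same chromosome, where the place of reads is uncertain. That region also gave the widest sgNpm1A peaks at a member, 20572 bp and 18855 bp, both inside the sgNeg peak.

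**Figure D4:**
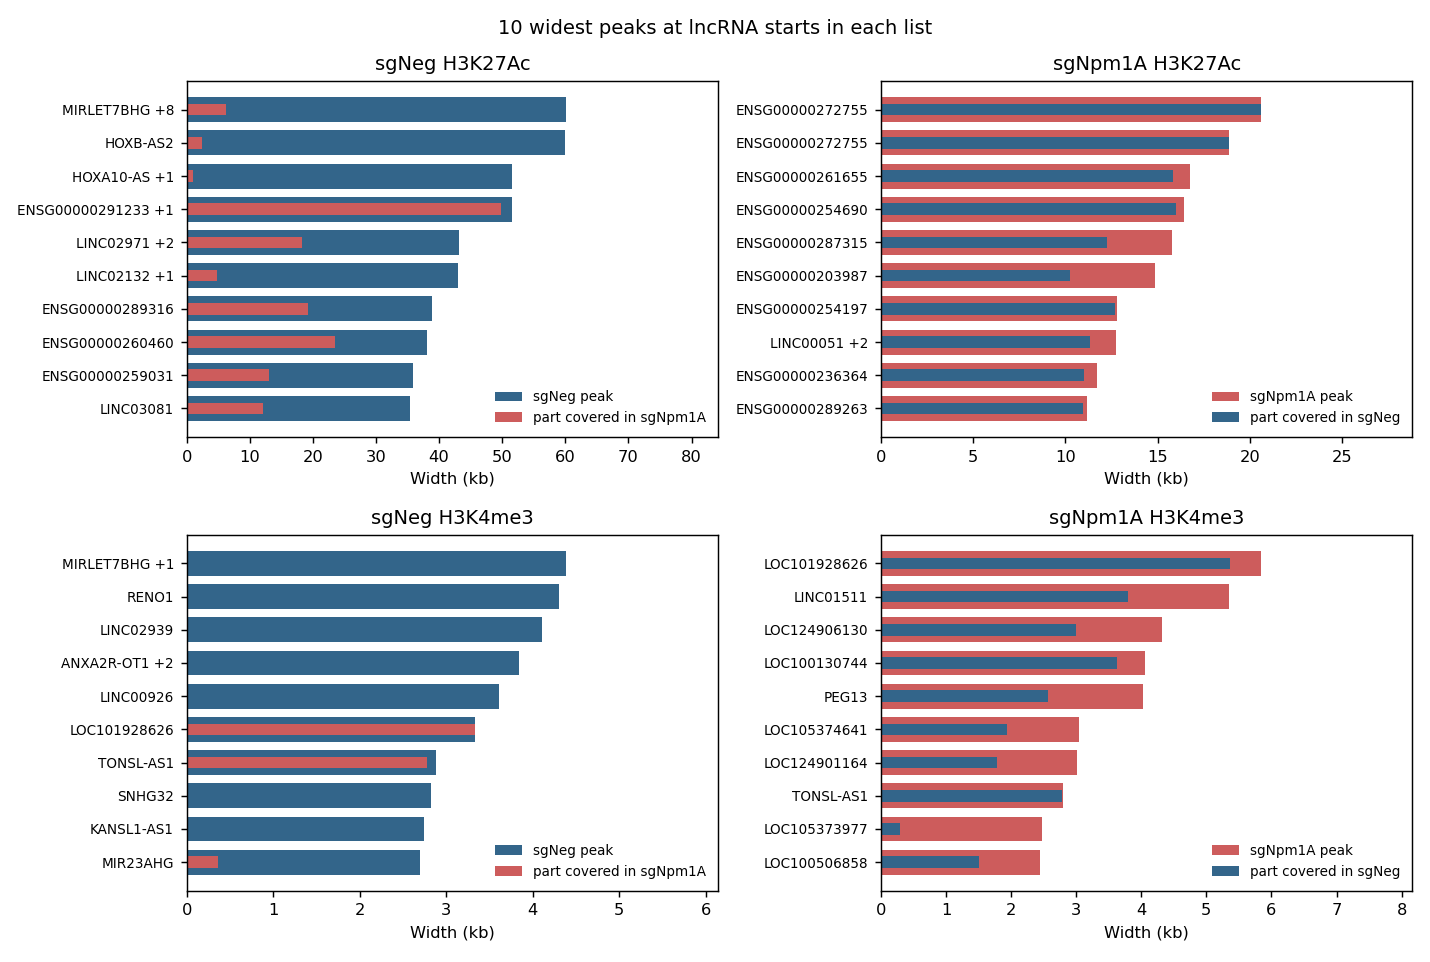
Width (horizontal axis, kb) of the 10 widest peaks at lncRNA starts in each list (wide bars) and the length of each that peaks of the other guide covered (narrow bars); +n marks further lncRNA starts under the same peak. The sgNeg domains at MIRLET7BHG, HOXB-AS2, HOXA10-AS and LINC02132 are covered to at most 11.3% in sgNpm1A. The other sgNeg H3K27Ac domains are covered to between 34.3% and 96.6%. The 10 widest sgNpm1A H3K27Ac peaks lie within sgNeg peaks to at least 69.0%. Each set was chosen by width in its own list, so cover in the other list is a description only.

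The 10 widest sgNpm1A H3K27Ac peaks at members measured 11192 to 20572 bp and overlapped sgNeg peaks over 69.0% to 100% of their length. They lay on chromosome 8 (5), chromosome 1 (4) and chromosome 9 (1). The members under them had only identifiers, apart from LINC00051, and most of these peaks overlapped a coding gene, such as SLC45A4, UCK2 or CACNA1B. Width over 5 kb was found at 502 members in sgNeg, 300 of which (59.8%) had a sgNpm1A peak, much as the 59.6% of all members with a sgNeg peak, and 32 a sgNpm1A peak of that width. In sgNpm1A 82 members had such a width, and 81 of them (98.8%) had a sgNeg peak, beside 67.8% of all members with a sgNpm1A peak. Each set was chosen by the width in its own list. Widths were counted at members only, so these counts have no share of all starts beside them. Over all peaks, the 99th percentile of width was 5416 bp in sgNeg H3K27Ac and 3219 bp in sgNpm1A H3K27Ac.

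The widest sgNeg H3K4me3 peaks were narrower than the H3K27Ac domains. The peak at MIRLET7BHG and LOC112268288 measured 4389 bp (chr22:46085022-46089410, hg38) enriched 7.49-fold at a q-value of 1.91e-19. RENO1, a lncRNA described in neural differentiation, had 4307 bp (chr17:81341688-81345994) with a fold enrichment of 14.6. LINC02939, in the let-7 locus as well, had 4103 bp with 10.8-fold enrichment. A group of 3 genes on chromosome 5, among them ANXA2R-OT1, shared 3846 bp, LINC00926 had 3612 bp, SNHG32, a snoRNA host, 2826 bp, and KANSL1-AS1, antisense to KANSL1, 2744 bp. For each of these 7 peaks the sgNpm1A list held no overlapping peak. MIR23AHG had 2702 bp (chr19:13840143-13842844) with a fold enrichment of 12.1, of which a sgNpm1A peak of 357 bp outside its start window covered 13.2%. The promoter sequences of MIRLET7BHG, RENO1 and MIR23AHG are those given above. In the RefSeq annotation the MIRLET7BHG start lies inside the coding record LOC124905135 on the same strand, whereas RENO1 and MIR23AHG lie outside coding genes.

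The remaining wide sgNeg peaks were covered in sgNpm1A. TONSL-AS1 on chromosome 8 had 2879 bp in sgNeg and 2799 bp in sgNpm1A. LOC101928626 (chr1:629092-632427) had 3336 bp and a fold enrichment of 42.0 in sgNeg, against 5833 bp and 197 in sgNpm1A, the highest fold enrichment of that list. Its sgNpm1A peak covered 7 annotated copies of mitochondrial genes, such as MTND1P23 and MTCO1P12, which share reads with near-identical copies, so that its values are uncertain. In sgNpm1A the next widest were LINC01511 (5347 bp, chr5:1377184-1382530), LOC124906130 (4320 bp), LOC100130744 (4051 bp) and PEG13, an imprinted gene on chromosome 8 (4020 bp). Of the 10 widest, 5 lay on chromosome 5. LOC105374641, whose CpG-poor promoter is given above, had 3042 bp with 11.7-fold enrichment in sgNpm1A and 1367 bp with 19.1-fold enrichment in sgNeg. LOC105373977, whose peak overlapped PDCD1, was the least shared, with 2476 bp in sgNpm1A that sgNeg covered to 11.8%.

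These rankings depended on how wide domains were split into rows. When peaks within 1 kb of each other were joined, 3 of the 10 widest sgNeg H3K27Ac peaks, 6 of the sgNpm1A H3K27Ac peaks, 1 of the sgNeg H3K4me3 peaks and 3 of the sgNpm1A H3K4me3 peaks still had a member among the 10 widest. The MIRLET7BHG domain then ranked second in sgNeg H3K27Ac with 101738 bp, behind 135993 bp at LINC01300 on chromosome 8. In sgNeg H3K4me3 the joined ranking was led by LINC01511 with 48095 bp, and 9 of its 10 regions lay on chromosomes 1, 5, 8 and 17, as 9 of 10 did in both sgNpm1A lists.

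The members with the highest percentile were ranked by guide. Among members marked in sgNeg H3K27Ac alone, the strongest peak was 15247 bp at ENSG00000241269 and ENSG00000188365 (chr7:5456165-5471411) with a fold enrichment of 14.3, followed by 16209 bp at ENSG00000259514 and ENSG00000270036 (chr15:76626461-76642669) with 13.6 and by the LINC00899 domain. In sgNpm1A alone, ENSG00000231476 led with 1513 bp (chr7:1657791-1659303) and a fold enrichment of 6.89 at a percentile of 99.9. It was followed by ENSG00000260721 (5.56-fold) and ENSG00000253988 (4.71-fold) on chromosome 8, LINC01304 on chromosome 2 (4.47-fold) and ENSG00000289165 on chromosome 3 (4.35-fold). In both lists, ROCK1P1, a partial copy of ROCK1 near the end of chromosome 18, had a fold enrichment of 21.0 in sgNeg and 28.9 in sgNpm1A. LINC00273 on chromosome 16 had 10.8 and 9.0, ENSG00000285584 8.45 and 8.90, ENSG00000267212 7.82 and 4.83 and ENSG00000255931 6.28 and 7.87. ROCK1P1 shares sequence with its parent gene, so that its values are uncertain too.

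For H3K4me3, the strongest members in sgNeg alone were SLC9A3-OT1 and SLC9A3-AS1, which share a peak of 918 bp (chr5:473248-474165) with 15.6-fold enrichment, then KANSL1-AS1 (15.0-fold), RENO1 (14.6-fold) and SNHG32 (13.7-fold). In sgNpm1A alone the values were lower, from 5.60-fold at LOC107984200 and LOC124904521 to 4.83-fold at LOC107985118 and LINC02839, with LOC105374846 at 5.09. The strongest in both lists, after LOC101928626 and LOC105374641, were LOC105374630, LINC01511 and LOC105372727. Their folds in sgNeg and sgNpm1A were 13.1 and 10.2, 12.5 and 8.90, and 8.94 and 7.89. By percentile, the measure used to compare the lists, each ranked higher in sgNpm1A. The percentiles were 99.89 and 99.97, 99.85 and 99.93, and 99.15 and 99.86. Apart from LOC105372727 on chromosome 20 and LOC101928626 on chromosome 1, these members lay on chromosome 5.

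Lists of known lncRNA genes were then read one by one. Among snoRNA hosts and abundant lncRNAs, 19 were members on hg19, 17 had a sgNeg H3K27Ac peak and 5 a sgNpm1A peak, beside 60.0% and 34.1% of all starts. The median percentile was 98.0 in sgNeg and 0 in sgNpm1A, against 0 and 0 over all members and 47.5 and 0 over all starts. The percentile was lower in sgNpm1A for 16 and higher for 1, MIAT (43.5 and 48.0). NEAT1, the scaffold RNA of paraspeckles, had 12462 bp with 6.74-fold enrichment in sgNeg and 920 bp with 3.04-fold in sgNpm1A. MALAT1, an abundant RNA of nuclear speckles, had 6939 bp with 7.95-fold enrichment in sgNeg and no sgNpm1A peak. NORAD, which binds PUMILIO proteins, had 1319 bp with 6.91-fold enrichment and SNHG16 7015 bp with 5.66-fold, both with no sgNpm1A peak.

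For H3K4me3 the members of this list on hg38 were not quite the same, since SNHG7, SNHG14 and SNHG17 lie within 5 kb of a coding start there and SNHG5 and OIP5-AS1 do not. Of these 18 members, 15 had a sgNeg peak and 0 a sgNpm1A peak, beside 55.7% and 8.97% of all starts, and the median percentile was 96.6 against 0, beside 0 and 0 over all members and 34.4 and 0 over all starts. NEAT1 (2386 bp, 12.5-fold), SNHG16 (1505 bp, 11.9-fold), SNHG29 (2373 bp, 11.6-fold), and SNHG5 (2406 bp) and DANCR (1895 bp) at an equal 9.15-fold led in sgNeg. SNHG5, SNHG29 and SNHG16 host snoRNAs that guide the modification of ribosomal RNA. MALAT1 and NORAD, in contrast, had weak sgNeg peaks of 219 bp (3.12-fold) and 195 bp (3.33-fold). SNHG12, CYTOR and OIP5-AS1 had none in either list.

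Of the miRNA hosts, 12 were members on hg19, with a H3K27Ac peak at 7 in sgNeg and 4 in sgNpm1A, close to the 60.0% and 34.1% of all starts. The median percentile was 94.4 in sgNeg and 0 in sgNpm1A, beside 47.5 and 0 over all starts. MIR17HG, host of the miR-17 to miR-92a cluster shown above, had 2606 bp with 9.22-fold H3K27Ac enrichment and 1199 bp with 10.2-fold H3K4me3 enrichment in sgNeg, and neither mark in sgNpm1A. MIR155HG had 2483 bp (5.20-fold) of H3K27Ac and 682 bp (4.16-fold) of H3K4me3 in sgNeg and neither in sgNpm1A. MIR181A1HG had H3K27Ac with both guides, 3539 bp in sgNeg and 1723 bp in sgNpm1A, and percentiles of 94.3 and 76.9. MIR100HG (percentile 67.7) and MIR34AHG (28.2) had a H3K27Ac peak in sgNpm1A alone. For H3K4me3, 6 of 11 hosts had a sgNeg peak, beside 55.7% of all starts, and 1, MIR29B2CHG, a sgNpm1A peak, with percentiles of 91.3 and 43.9. MIR34AHG, whose miR-34a is a target of p53, had a H3K4me3 peak of 617 bp in sgNeg alone.

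**Figure D5:**
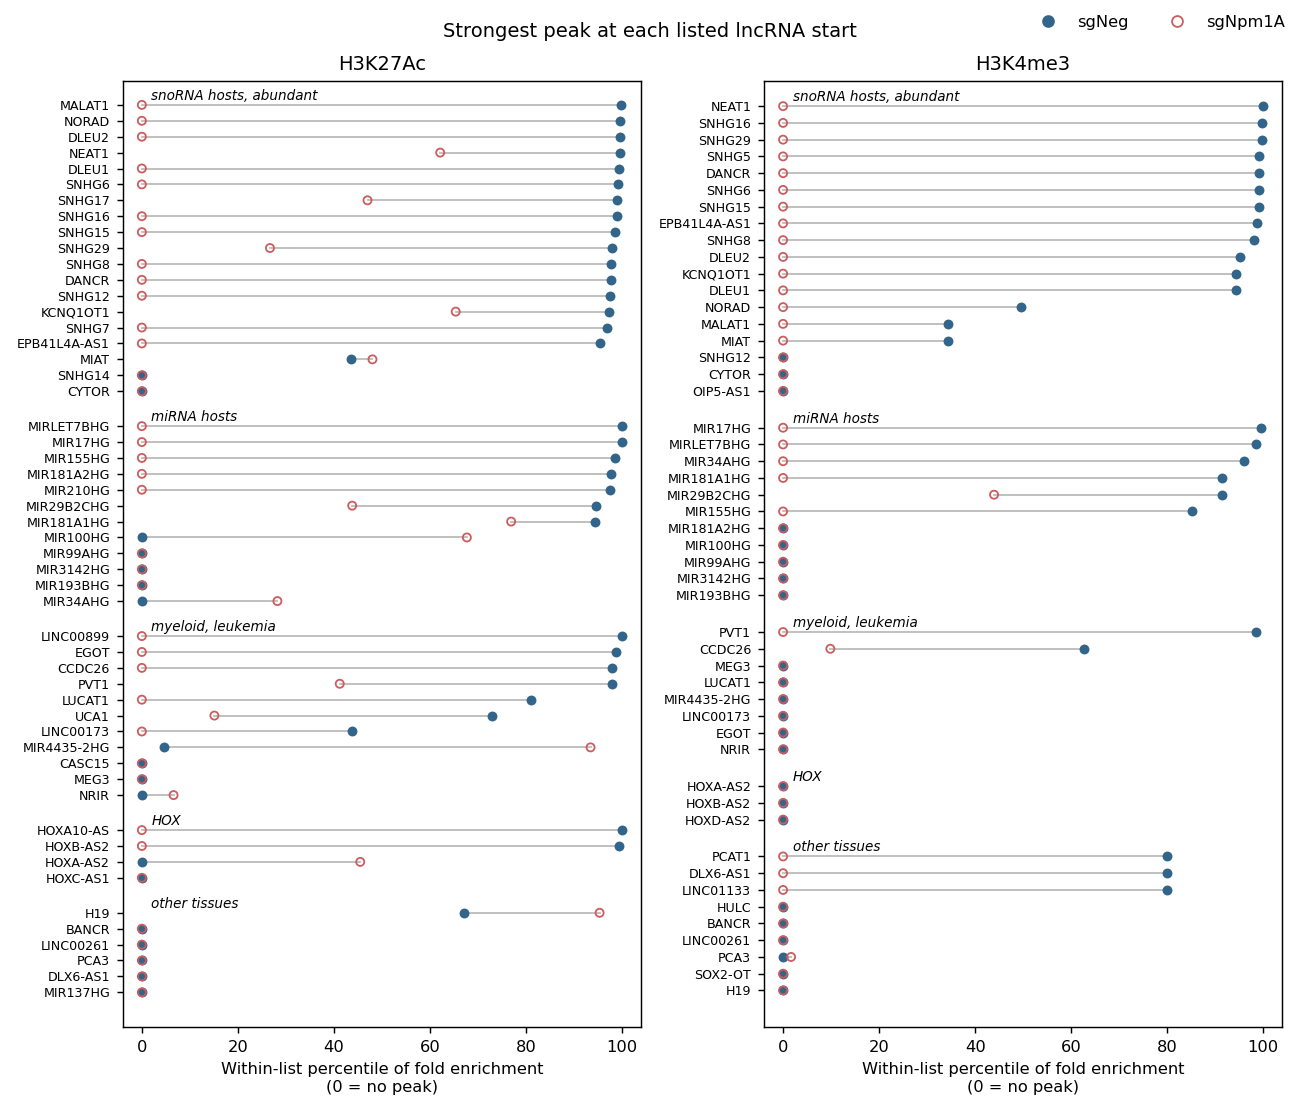
Within-list percentile of fold enrichment (horizontal axis, 0 for no peak) of the strongest peak at each member of the 5 gene lists, with filled points for sgNeg and open points for sgNpm1A joined by a line. Most snoRNA hosts lie above the percentile of 94 in sgNeg and at 0 in sgNpm1A, whereas H19 and MIR4435-2HG are higher in sgNpm1A H3K27Ac.

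Among noncoding genes of myeloid cells and leukemia, 8 of 11 members had a sgNeg H3K27Ac peak and 4 a sgNpm1A peak, beside 60.0% and 34.1% of all starts. The median percentiles were 72.9 and 0, beside 47.5 and 0 over all starts. CCDC26, a lncRNA gene downstream of MYC on chromosome 8, had 15721 bp with 4.82-fold enrichment in sgNeg and no sgNpm1A peak. EGOT, named for its transcript in eosinophils, had 24211 bp with 5.40-fold enrichment and no sgNpm1A peak. PVT1, the neighbour of MYC, had percentiles of 97.8 and 41.2. MIR4435-2HG was higher in sgNpm1A, with percentiles of 4.59 and 93.4, and its peaks measured 625 bp and 267 bp. For H3K4me3, 2 of 8 members had a sgNeg peak, beside 29.4% of all members and 55.7% of all starts. They were PVT1 (2210 bp, 7.49-fold) and CCDC26 (205 bp, 3.54-fold). Only CCDC26 had a sgNpm1A peak, of 376 bp, beside 11.5% of all members and 8.97% of all starts. MEG3 and CASC15 had no H3K27Ac peak in either list.

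Most HOX noncoding genes lie within 5 kb of a coding start and so were not members, and 4 were on hg19 and 3 on hg38. HOXA10-AS and HOXB-AS2 had the wide sgNeg H3K27Ac domains given above, HOXA-AS2 had a sgNpm1A peak alone (1238 bp, percentile 45.5) and HOXC-AS1 had none. The 3 members on hg38, HOXA-AS2, HOXB-AS2 and HOXD-AS2, had 0 H3K4me3 peaks in either list. Among lncRNAs known from other tissues, 1 of 6 members had a sgNeg H3K27Ac peak, beside 39.5% of all members and 60.0% of all starts. The marked member was H19, an imprinted fetal transcript, with 937 bp in sgNeg and 2190 bp in sgNpm1A and percentiles of 67.0 and 95.3. For H3K4me3, PCAT1, DLX6-AS1 and LINC01133 had sgNeg peaks of 134 to 369 bp at a percentile of 80.0, and PCA3 a sgNpm1A peak at 1.67, out of 9 members. Any H3K4me3 peak was found at 29.4% (sgNeg) and 11.5% (sgNpm1A) of all members, and at 55.7% and 8.97% of all starts.

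The marks were joined by gene symbol, which paired 3273 members across the builds. In sgNeg, 719 carried both marks, 653 H3K27Ac alone, 316 H3K4me3 alone and 1585 neither, so that H3K27Ac was present at 69.5% of members with H3K4me3 and at 29.2% of those without. In sgNpm1A, 317 carried both, 855 H3K27Ac alone, 93 H3K4me3 alone and 2008 neither, with 77.3% and 29.9%. The marks were paired for members only. Whether they coincide more or less often at coding starts or over all starts was not tested, also for the strong peaks below. Strong peaks of both marks in sgNeg were found at 102 members. They were chosen by their sgNeg values, so their sgNpm1A values are a description only. In sgNpm1A, 42 of them (41.2%) had a H3K27Ac peak, against 35.8% of all 3273 paired members, and 10 (9.80%) had a H3K4me3 peak, against 12.5%. Both marks share the guide but come from separate libraries, and the lists on hg19 and hg38 were matched by name only, under which the annotated starts can differ.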

How the data were processed

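OCI-AML3 chromatin was immunoprecipitated and tagmented on beads with Tn5 (ChIPmentation), and groups were taken from the sample titles. Per the labels, the submitters' processing notes name Bowtie 1.1.2, Trimmomatic 0.33 and MACS2 2.1.0. The authors deposited 1 peak list per library in the layout of MACS2, broad for H3K27Ac and narrow for H3K4me3, while neither the limit for calling nor any role of the inputs was given in the sources used here. The deposited fold enrichment is a ratio to the expected pileup, averaged over a broad peak and at the summit of a narrow one, so that the widths and folds of the marks are not comparable. The p-value and q-value were deposited as −log10 values for the same place. The deposited score was not used.

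The notes name hg38, but H3K27Ac peaks ended past chromosome 1 of hg38 (at 249218478 and 249212461) and were read as hg19, and H3K4me3 peaks ended past chromosome 17 of hg19 (at 83201880 and 83201881). GENCODE 44 mapped to GRCh37 gave starts for H3K27Ac. The RefSeq gene table of GRCh38.p14 gave those for H3K4me3, where 12529 of 17845 autosomal lncRNA and ncRNA genes had a strand, from the promoter table by gene ID (11145) or else from GENCODE. The 5316 others were not used. Strands from both sources were the same for 18918 of 18996 genes.

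A start had a peak where at least 1 bp of a peak lay within 1 kb. Python 3.11.15, pandas 2.3.3 and numpy 2.4.6 were used, and overlaps were checked on simulated data. Shares have 95% Wilson intervals. Named genes were the 10 widest peaks per list, the 5 members of highest percentile per guide class, and the members of 5 lists of noncoding genes. The members and lists were chosen with earlier results of these data known. Alternatives changed the window, overlap, peak threshold, distance to coding starts and joining of peaks.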

Additional observations from a re-analysis of the deposited data

How the results depend on the processing

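Of 63 alternatives for the counts of lncRNA starts, 34 left the count within 1.5 times its reported value and 29 did not. In sgNeg H3K27Ac the 5539 marked starts became 2254 at a q-value under 0.01, 666 under 1e-05, 816 at a fold enrichment of at least 4, 1081 with the 20000 strongest peaks and 8673 with no limit on the distance to coding starts. The 4871 starts in sgNpm1A H3K27Ac became 1938, 67, 143 and 395 under the first 4 of these. In sgNeg H3K4me3 the 2817 starts became 929 under 1e-05, 721 at that fold, 334 with the 20000 strongest peaks, 1456 with an overlap of at least 200 bp and 4913 with no distance limit. The 1105 starts in sgNpm1A H3K4me3 became 191, 382 and 247 under the same first 3 settings and 1695 with 2 kb on either side. The 3301 starts with H3K27Ac in both lists became 2186 with 500 bp on either side, 733 at 0.01, 27 at 1e-05, 42 at that fold and 116 with the 20000 strongest peaks. The 806 with H3K4me3 in both became 496 with 500 bp, 1372 with 2 kb, 125 at 1e-05, 179 at that fold, 73 with the 20000 strongest peaks and 489 with the 200 bp overlap. When peaks within 1 kb were joined, 3, 6, 1 and 3 of the 10 widest stayed among the 10 widest in sgNeg H3K27Ac, sgNpm1A H3K27Ac, sgNeg H3K4me3 and sgNpm1A H3K4me3. Stricter peak limits and narrower windows count fewer peaks by construction.

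No paired analysis was possible because each guide had 1 library per mark and no replicate number. Starts of every transcript could not be tried for H3K4me3, since the RefSeq gene table holds genes only. Read depth is unknown, so that a start with no peak was one without a call and not one shown to lack the mark, and the H3K4me3 lists differed most in length.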
